A study of Mus musculus with 48 samples.

Results

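The 8 genes described here encode voltage-gated sodium channel subunits: the alpha subunits Scn1a, Scn2a, Scn3a and Scn8a, the divergent alpha-like subunit Scn7a, and the beta subunits Scn2b, Scn3b and Scn4b. They are the rows with these symbols among the 24444 genes of the expression table, and all 8 were measured in all 48 mice. Cortex of 1 hemisphere of male C57BL/6J mice was profiled by RNA-seq of polyA RNA with 6 wild-type (WT) and 6 Chd8 V986*/+ mice per age. The 4 ages were embryonic day 14.5 (E14.5), 1 month, 6 months and 12 months. Chd8 V986*/+ mice carry stop codons at the position that gives the allele its name and at the next codon on 1 Chd8 allele, in every cell and from conception, and the WT mice were littermates without the mutation. The line descends from 1 founder male made by CRISPR/Cas9. Chd8 is a chromatin remodeler whose loss-of-function mutations are linked to autism.

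Voltage-gated sodium channels open when a neuron is depolarized and carry the current that starts and propagates the action potential. One large alpha subunit forms the pore, and smaller beta subunits with a single membrane-spanning segment modify its gating, bind it to adhesion molecules and help to anchor it at the axon initial segment. In cortex, Scn3a is known as the alpha subunit of the fetal brain, Scn2a as that of excitatory neurons and young axons, Scn1a as that of inhibitory interneurons and Scn8a as that of mature axon initial segments and nodes of Ranvier.

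The alpha subunits are close relatives, apart from Scn7a. Over the aligned translated coding sequences, Scn1a, Scn2a and Scn3a shared 85.3% to 88.1% of their residues, Scn8a shared 78.3% to 79.0% with them, and Scn7a shared 49.8% to 52.8% with the other alpha subunits. The beta subunits were more distant from each other, at 22.8% to 30.05%.

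The similarity touches the measurement. Of all 50-base runs in the annotated transcripts, 8.14% of those of Scn2a, 6.41% of those of Scn3a and 5.33% of those of Scn1a also occur in another sodium channel gene, and reads of this length from such runs can be shared out between genes. For Scn8a the share was 0.049%, and for Scn7a, Scn2b, Scn3b and Scn4b no run was shared.

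In mm9, 4 of the 8 genes lie on chromosome 2. Scn3a (chr2:65295175-65405684, minus strand) and Scn2a (chr2:65458914-65605504, plus strand) are neighbours, and Scn1a (chr2:66108838-66278897) and Scn7a (chr2:66511482-66622971) lie on the minus strand beyond them with Scn9a in between. Scn3b (chr9:40076801-40099203), Scn2b (chr9:44925959-44938153) and Scn4b (chr9:44946520-44962235) share the plus strand of chromosome 9, and Scn8a (chr15:100785829-100876360, plus strand) is on chromosome 15. Annotated transcripts on the opposite strand overlap Scn1a, Scn3a and Scn2b. Sources differ on whether the libraries kept the strand, so reads of those overlaps may not be told apart.

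Scn2b and Scn4b are separated by 8366 bases. Both rose more after E14.5 than any other member (below), and their start regions are shown for that reason, as RefSeq gives them for GRCm38.p6, from 250 bases before to 50 after the start, with every CG in capitals.
Scn2b: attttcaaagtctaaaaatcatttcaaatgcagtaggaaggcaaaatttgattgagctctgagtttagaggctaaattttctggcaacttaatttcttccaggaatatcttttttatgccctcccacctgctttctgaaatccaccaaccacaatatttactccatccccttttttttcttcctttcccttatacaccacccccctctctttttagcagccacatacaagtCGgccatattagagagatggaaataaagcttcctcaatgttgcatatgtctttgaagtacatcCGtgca
Scn4b: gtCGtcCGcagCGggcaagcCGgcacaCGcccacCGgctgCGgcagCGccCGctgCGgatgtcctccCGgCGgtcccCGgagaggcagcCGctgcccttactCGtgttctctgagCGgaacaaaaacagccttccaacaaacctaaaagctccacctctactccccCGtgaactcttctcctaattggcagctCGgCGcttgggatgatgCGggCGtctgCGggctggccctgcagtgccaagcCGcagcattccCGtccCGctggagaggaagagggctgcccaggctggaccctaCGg
The Scn2b window (chr9:45117626-45117925, plus strand) holds 2 CG and the Scn4b window (chr9:45138374-45138673, plus strand) holds 26, against a median of 7 over 32851 promoters of mouse genes. Of these promoters, 14.1% hold fewer CG than that of Scn2b and 83.1% hold fewer than that of Scn4b. Of the 8 members, 6 had an entry among these promoters, and Scn3a and Scn3b had none. DNA methylation was not measured in these samples.

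The values are variance-stabilized (VST) expression on a log2 scale, so a difference of 1 is about a doubling, and low genes are compressed toward a floor of 2.14. Gene length is not removed, so levels are compared between groups for a gene and not between genes. Chd8 itself was lower in Chd8 V986*/+ mice at all 4 ages, with log2 changes of -0.54 to -0.67 (limma adjusted p from 1.07e-07 to 0.026) and no overlap between genotypes. The 6 cortical markers, Emx1, Tbr1, Neurod6 and Slc17a7 among them, were well above the floor in every group, with a mean over the 6 genes of 11.3 to 11.7. Markers of midbrain, hindbrain and spinal cord stood apart at E14.5: their mean over 30 genes was 3.52 to 6.69 in WT and 3.60 to 4.64 in Chd8 V986*/+ samples, and the highest was WT replicate 5. Member results that rest on this sample are given with and without it.

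The question for age was how each subunit changed over cortical development and adult life in either genotype. Between E14.5 and 1 month, 6 of the 8 members rose in WT cortex and 1, Scn3a, fell, by limma with an adjusted p below 0.1, while 43.9% of all 17341 genes tested rose and 41.7% fell. In Chd8 V986*/+ cortex the same counts were 6 and 1, against 44.5% and 42.1% of 17291 genes. On the log2 scale the 8 members had a median change of 3.25 (WT) and 3.64 (Chd8 V986*/+), against 0.03 and 0.04 over all genes tested. In whole tissue, more cells of a type and more RNA per cell cannot be told apart.

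**Figure D1:**
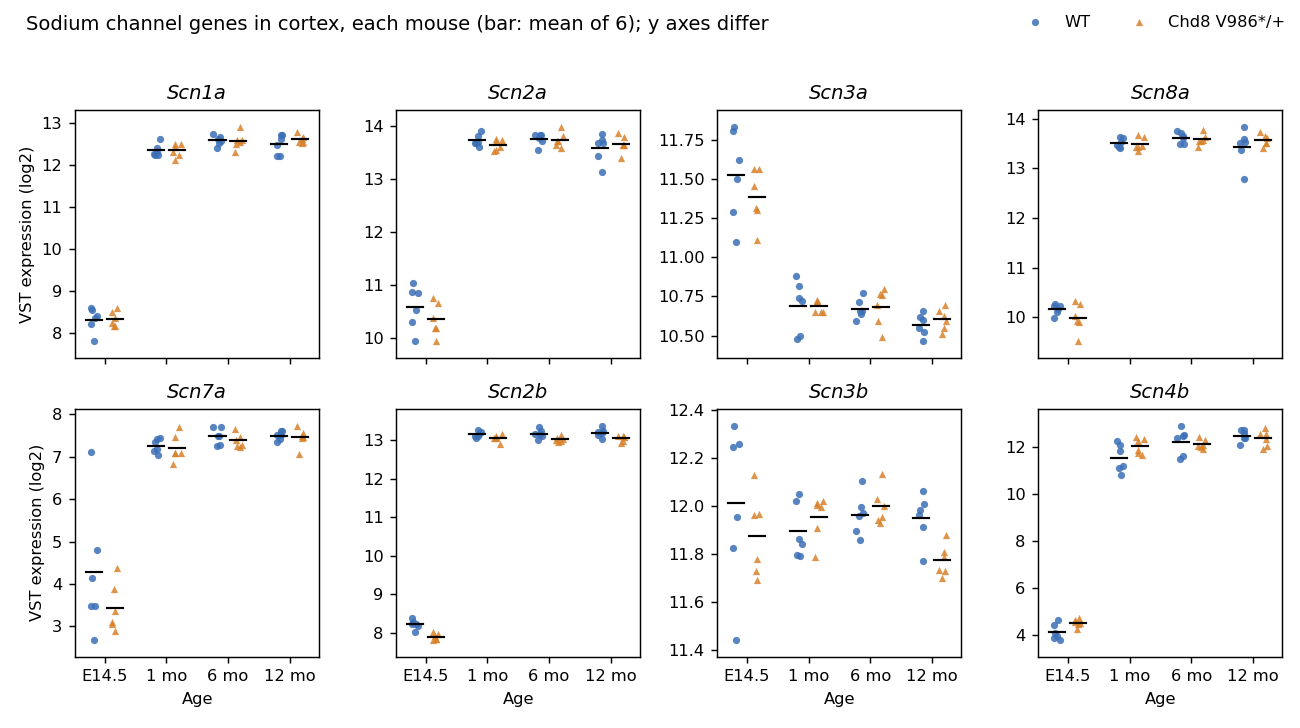
VST expression (log2, y axis, scaled per gene) of the 8 sodium channel genes in each mouse against age, for WT (circles) and Chd8 V986*/+ mice (triangles), with bars at the means of 6 mice. All genes but Scn3a and Scn3b were higher at 1 month than at E14.5, Scn3a was lower, and Scn3b stayed within 11.4 to 12.3.

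Scn1a, the sodium channel of inhibitory interneurons, ranged from 7.81 to 8.59 in WT cortex at E14.5 (median 8.38) and from 12.24 to 12.63 at 1 month (median 12.30). In Chd8 V986*/+ cortex the E14.5 values were 8.16 to 8.60 (median 8.30) and those at 1 month 12.13 to 12.51 (median 12.37). No mouse of either genotype overlapped between these ages. The log2 change was 4.04 ± 0.11 (limma SE, adjusted p = 2.06e-22) in WT and 4.02 ± 0.09 (adjusted p = 4.17e-25) in Chd8 V986*/+ mice, about 16-fold.

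Scn2a, the main alpha subunit of excitatory cortical neurons, ranged from 9.96 to 11.05 (median 10.69) in WT and from 9.95 to 10.76 (median 10.29) in Chd8 V986*/+ cortex at E14.5. At 1 month it ranged from 13.61 to 13.91 (median 13.68) and from 13.54 to 13.76 (median 13.66). It rose by 3.13 ± 0.13 in WT (adjusted p = 4.53e-18) and by 3.29 ± 0.10 in Chd8 V986*/+ mice (adjusted p = 1.99e-21, limma), without overlap. Scn8a, which replaces Scn2a at many axon initial segments and nodes as axons mature, ranged from 9.99 to 10.25 (median 10.19) in WT and from 9.51 to 10.32 (median 9.97) in Chd8 V986*/+ cortex at E14.5. At 1 month its values were 13.41 to 13.63 (median 13.50) and 13.36 to 13.67 (median 13.45). Its rise of 3.36 ± 0.11 in WT and 3.51 ± 0.09 in Chd8 V986*/+ mice passed the test in both (limma adjusted p = 5.05e-21 and 8.79e-23).

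Scn3a was the only alpha subunit among the members that fell. It ranged from 11.10 to 11.83 (median 11.56) in WT and from 11.11 to 11.56 (median 11.39) in Chd8 V986*/+ cortex at E14.5, and from 10.48 to 10.88 (median 10.73) and from 10.65 to 10.72 (median 10.68) at 1 month. All E14.5 samples lay above all 1-month samples of their genotype. The log2 change was -0.84 ± 0.09 in WT (adjusted p = 4.23e-09) and -0.70 ± 0.06 in Chd8 V986*/+ mice (adjusted p = 4.58e-11, limma), 0.56-fold and 0.616-fold on the VST scale. Quantile normalization, which moved the median change of all genes from 0.03 to -0.10 in WT and from 0.04 to -0.10 in Chd8 V986*/+ mice, kept the sign and the call of Scn3a.

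Scn7a encodes a channel that in the adult senses extracellular sodium and is not opened by voltage. It was low at E14.5, at 2.69, 3.48, 3.48, 4.14, 4.80 and 7.12 in the WT samples and at 2.89, 3.06, 3.09, 3.37, 3.88 and 4.38 in the Chd8 V986*/+ samples. The value of 7.12 was WT replicate 5, the sample with the highest hindbrain and spinal cord markers, and it alone reached the 1-month range of 7.04 to 7.44 in WT. At 1 month Chd8 V986*/+ mice ranged from 6.83 to 7.71. Scn7a rose by 2.98 ± 0.41 in WT (adjusted p = 1.70e-07), by 3.55 without replicate 5 (adjusted p = 2.61e-14), and by 3.77 ± 0.19 in Chd8 V986*/+ mice (adjusted p = 1.44e-16, limma).

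The beta subunits showed the widest spread of changes. Scn4b, a beta subunit linked to the resurgent current of fast-firing neurons, ranged from 3.798 to 4.66 (median 4.02) in WT and from 4.25 to 4.72 (median 4.52) in Chd8 V986*/+ cortex at E14.5, not far above the floor. At 1 month it reached 10.84 to 12.30 (median 11.51) and 11.67 to 12.46 (median 12.08). The log2 change of 7.44 ± 0.23 in WT (adjusted p = 5.00e-21) was higher than that of 99.9% of the genes tested, and the change in Chd8 V986*/+ mice was 7.55 ± 0.14 (adjusted p = 1.65e-26, limma). Because VST compresses low levels, the fold at E14.5 is an approximation.

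Scn2b, whose product is joined to the alpha subunit by a disulfide bond, ranged from 8.02 to 8.38 (median 8.22) in WT and from 7.81 to 8.001 (median 7.87) in Chd8 V986*/+ cortex at E14.5. At 1 month it ranged from 13.05 to 13.25 (median 13.13) and from 12.91 to 13.16 (median 13.07). It rose by 4.93 ± 0.06 in WT (adjusted p = 2.40e-29), about 30.5-fold, and by 5.17 ± 0.04 in Chd8 V986*/+ mice (adjusted p = 4.94e-33), about 36.1-fold. By p-value this change ranked 10 of 17341 in WT and 3 of 17291 in Chd8 V986*/+ mice (limma).

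Scn3b, which is bound to the alpha subunit without a disulfide bond, did not pass the test at this step. It ranged from 11.44 to 12.33 (median 12.10) in WT and from 11.69 to 12.13 (median 11.87) in Chd8 V986*/+ cortex at E14.5, and from 11.79 to 12.05 (median 11.85) and from 11.79 to 12.02 (median 12.00) at 1 month. The values at the ages overlapped in both genotypes. The log2 change was -0.12 ± 0.10 (adjusted p = 0.29) in WT and 0.08 ± 0.06 (adjusted p = 0.22) in Chd8 V986*/+ mice by limma. The result depended on 3 samples and on the scaling. In WT the change was -0.23 without E14.5 replicate 6 (adjusted p = 0.0084) and -0.29 with quantile normalization (adjusted p = 0.014). In Chd8 V986*/+ mice it was 0.13 without E14.5 replicate 2 (adjusted p = 0.031), 0.11 without 1-month replicate 3 (adjusted p = 0.087), 0.11 with median centring (adjusted p = 0.093) and, with the sign turned, -0.10 with quantile normalization (adjusted p = 0.11).

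**Figure D2:**
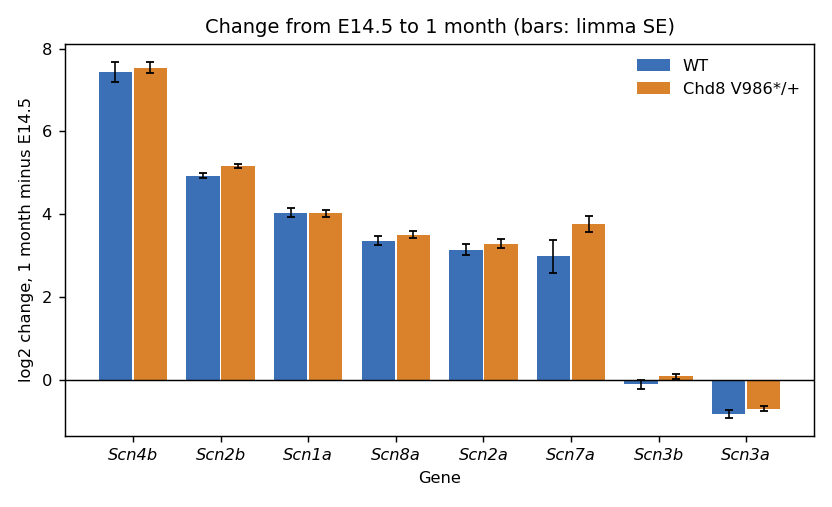
Log2 change in VST expression from E14.5 to 1 month (y axis) for each sodium channel gene (x axis) in WT and Chd8 V986*/+ mice, with limma SE from 6 mice a group. Scn4b rose by 7.44 and 7.55, Scn2b by 4.93 and 5.17, and only Scn3a fell past the test, by 0.84 and 0.70.

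After 1 month, levels moved little. Between 1 and 6 months, 1 of the 8 members rose in WT cortex, Scn4b, where 6.86% of all genes rose, and 1 rose in Chd8 V986*/+ cortex, Scn1a, where 11.0% of all genes rose. The difference between genotypes in this step was not tested. Scn4b in WT went from 10.84 to 12.30 (median 11.51) at 1 month to 11.51 to 12.93 (median 12.44) at 6 months, a log2 change of 0.68 ± 0.23 (limma adjusted p = 0.066), with overlap. The call was lost when any 1 of WT 1-month replicates 1, 3 and 4 or 6-month replicates 1, 2, 5 and 6 was left out, with changes of 0.53 to 0.64 and adjusted p of 0.12 to 0.17. In Chd8 V986*/+ cortex Scn4b changed by 0.08 ± 0.14 (adjusted p = 0.75). The 6 striatal markers that Scn4b moved with across mice (below) all had higher means at 6 months in WT, with a median change of 0.32. In Chd8 V986*/+ mice all 6 had lower ones, with a median change of -0.15, and 0 were called in either genotype. The part of striatal tissue in the Scn4b step was not tested.

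Scn1a in Chd8 V986*/+ cortex went from 12.13 to 12.51 (median 12.37) at 1 month to 12.31 to 12.91 (median 12.58) at 6 months, a log2 change of 0.23 ± 0.09 (limma adjusted p = 0.073). The call was lost without any 1 of its 1-month replicates 1, 2 and 3 or 6-month replicates 1, 4 and 6, with changes of 0.16 to 0.22 and adjusted p of 0.11 to 0.20. In WT the change of Scn1a was 0.24 ± 0.11 (adjusted p = 0.18), as large as in Chd8 V986*/+ mice, and it passed when only the 2 ages were compared (adjusted p = 0.019) or E14.5 replicate 6 was left out (adjusted p = 0.088).

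Between 6 and 12 months, 0 members were called in WT, where 0.0115% of all genes were called. An unadjusted limma p below 0.05 was reached by 0 members and by 1283 of the 17341 genes tested. In Chd8 V986*/+ cortex Scn3b fell, as 1.27% of all genes did, from 11.93 to 12.13 (median 11.98) at 6 months to 11.70 to 11.88 (median 11.76) at 12 months. All 6 mice at 12 months lay below all 6 at 6 months, and the share of all genes that did so was not counted. The log2 change was -0.23 ± 0.06 (limma adjusted p = 0.070), and WT mice changed by -0.01 ± 0.10 (adjusted p = 0.98). Whether this step differed between genotypes was not tested. The call was lost when any 1 of Chd8 V986*/+ 6-month replicates 2, 3, 4 and 6 or 12-month replicates 1, 2, 3, 4 and 6 was left out, with changes of -0.20 to -0.23 and adjusted p of 0.10 to 0.17.

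Ordered by mean level, the 3 postnatal ages overlapped with their neighbours in the order for every member in both genotypes. Postnatal ages that are not neighbours in the order lay apart in Chd8 V986*/+ mice for Scn3b, at 6 and 12 months, and for Scn1a. Scn1a in these mice was 12.13 to 12.51 at 1 month and 12.53 to 12.79 at 12 months. E14.5 stood apart from all postnatal ages for Scn1a, Scn2a, Scn8a, Scn2b and Scn4b, where it was lowest, and for Scn3a, where it was highest. For Scn7a it was lowest and separate in Chd8 V986*/+ mice, and in WT it overlapped through replicate 5. For Scn3b the E14.5 range overlapped its neighbours in both genotypes. The share of all genes whose ranges did not overlap between these ages was not counted. By limma, 85.5% of all genes in WT and 86.5% in Chd8 V986*/+ mice were called between E14.5 and 1 month.

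Within a mouse, the difference of 2 genes carries the same length term in every sample, so its shift between groups can be read. The difference Scn1a minus Scn3a shifted by 4.87 in WT and 4.72 in Chd8 V986*/+ mice on the log2 scale between E14.5 and 1 month, a change in their ratio of about 29.3-fold and 26.3-fold. Scn2b minus Scn3b shifted by 5.05 and 5.09. Neither balance overlapped between these ages in either genotype. These shifts follow from the changes of the single genes given above and are not separate results. The share of other gene pairs that separate in this way was not counted. Scn8a minus Scn2a shifted by 0.22 in both, with overlap in WT, where the E14.5 values ran from -0.80 to 0.14.

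Between genotypes, 0 of 12 comparisons of a balance passed (exact permutation tests with Benjamini-Hochberg adjustment over the 12, threshold 0.05). The nearest was Scn2b minus Scn3b at 6 months, which was 1.05 to 1.48 in WT and 0.98 to 1.1195 in Chd8 V986*/+ mice, with some overlap. The means differed by -0.18 (exact p = 0.0043, adjusted p = 0.052), and the adjusted p was 0.026 without WT replicate 3. The same difference was -0.19 at E14.5, -0.15 at 1 month and 0.03 at 12 months, with adjusted exact p of 0.55, 0.55 and 0.85.

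**Figure D3:**
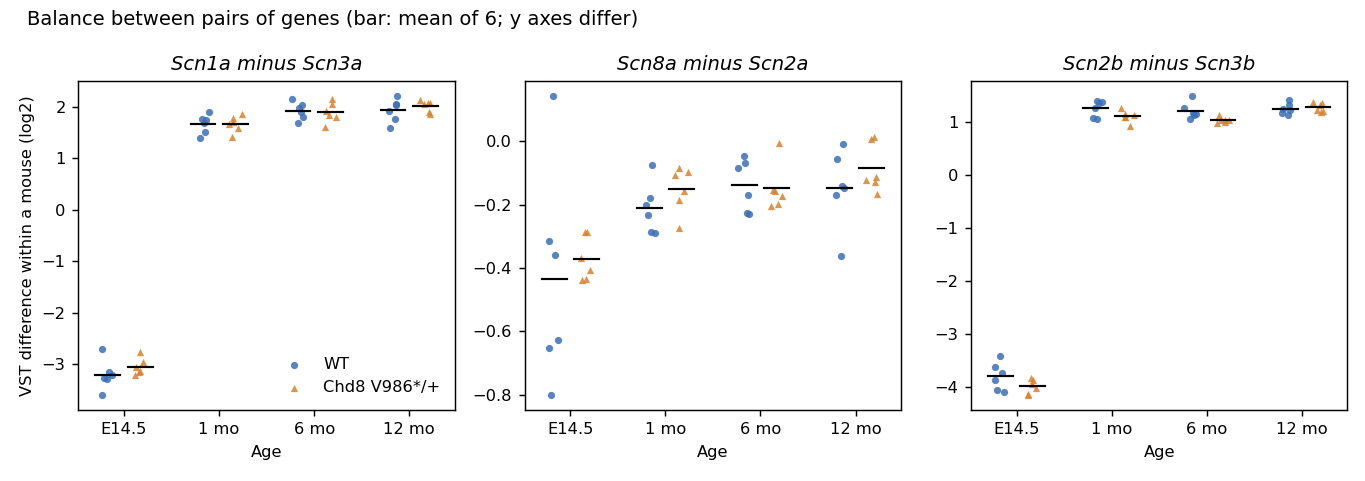
Difference in VST expression (log2, y axis) between 2 genes of the same mouse against age, for Scn1a minus Scn3a, Scn8a minus Scn2a and Scn2b minus Scn3b, with bars at the means of 6 mice. The zero point depends on gene length. Scn1a minus Scn3a and Scn2b minus Scn3b shifted by 4.72 to 5.09 between E14.5 and 1 month, and Scn8a minus Scn2a by 0.22.

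Among further voltage-gated sodium channel genes, Scn9a and Scn11a, both best known from sensory neurons, fell between E14.5 and 1 month, by 2.86 and 1.34 in WT and by 2.74 and 1.03 in Chd8 V986*/+ mice (all limma adjusted p of 0.00069 or lower). Scn10a, at 4.002 to 4.91 in group means and 6.72 in WT E14.5 replicate 5, was not called at any step, and Scn4a, the muscle channel, lay near the floor in all groups (means 2.36 to 2.75) and was not tested.

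Proteins that hold or modulate sodium channels at the axon initial segment and node moved in the same direction as most members: 16 of 18 rose and 2 fell between E14.5 and 1 month in both genotypes, where 43.9% and 44.5% of all genes rose and 41.7% and 42.1% fell, with a median change of 1.41 in WT and 1.46 in Chd8 V986*/+ mice on the log2 scale. The largest rises were those of Cntnap1, a paranodal adhesion protein (6.23 and 6.66), and Hapln2, a matrix link protein of nodes (5.16 and 4.80). The falls were those of Nedd4l, a ubiquitin ligase that removes channels from the membrane (-0.21 and -0.18), and Cntnap2, a juxtaparanodal protein (-0.14 and -0.19). Between 1 and 6 months, 1 of the 18 rose and 1 fell in WT, and 2 rose and 1 fell in Chd8 V986*/+ mice, where 6.86% and 11.0% of all genes rose and 7.91% and 10.8% fell, with Hapln2 up (0.43 and 0.37) and Nfasc, the neurofascin that organizes nodes, down (-0.64 and -0.67) in both. Between genotypes, 0 of these 18 genes and 0 of the 5 other sodium channel genes tested were called at any age by limma.

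The genes whose 8 group means, centred on their own average, lay nearest to each member were found among 17303 genes, by root mean square difference on the log2 scale. For Scn8a they were Fgf12 (0.0260), which encodes a protein that binds sodium channel tails, Syt1 (0.0286), the synaptic vesicle calcium sensor, and Slc12a5 (0.0419), the neuronal chloride exporter. Scn1a lay nearest to Dlgap1 (0.0461), Slc9a2 (0.0563) and Pgr (0.0572), and Scn2a to Kcnip4 (0.0452), Kcnma1 (0.0587) and Gabrb1 (0.0606). Scn3a lay nearest to Nsd1 (0.0261), Unc13b (0.0343) and Acrbp (0.0374), and Scn3b to Ranbp6 (0.0342), Taf3 (0.0391) and Crk (0.0415). Near Scn2b lay Gpr158 (0.0699) and Myrf (0.0823). Scn7a and Scn4b had no neighbour as close, with Siglech (0.101), Trpm2 (0.146) and Sec14l5 (0.162) for the first and Ptk2b (0.205), Itpka (0.285) and Ddn (0.287) for the second. These patterns rest on 8 means each, 6 of them postnatal and close together.

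The question for genotype was whether loss of 1 Chd8 allele changed the expression of these channels at any age. By limma at each age, 0 of the 8 members were called at any of the 4 ages. The authors used DESeq2 with a batch-corrected model and clustered the genes it called. They reported a cluster tied to sodium channel activity and synapses as lower at E14.5 in Chd8 V986*/+ cortex. That result and the limma fits on VST values were not compared gene by gene. From the youngest to the oldest, 0.00593%, 0.139%, 0.0927% and 0.0463% of all genes were called, Chd8 among them. At an unadjusted p below 0.05 there were 2 members at E14.5 (Scn2b and Scn4b), 1 at 1 month (Scn4b), 1 at 6 months (Scn2b) and 2 at 12 months (Scn2b and Scn3b). Of all genes tested, 769 of 16877 reached this unadjusted p at E14.5 and 1515 of 17221 at 1 month. At 6 and 12 months these were 1310 of 17256 and 2000 of 17288. The median log2 change of the 8 members was -0.15, -0.01, -0.02 and -0.00069 in the same order of ages, against values between -0.0029 and 0.0046 over all genes. In these fits Chd8 V986*/+ mice had lower means than WT for 6, 6, 6 and 4 of the 8 members.

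**Figure D4:**
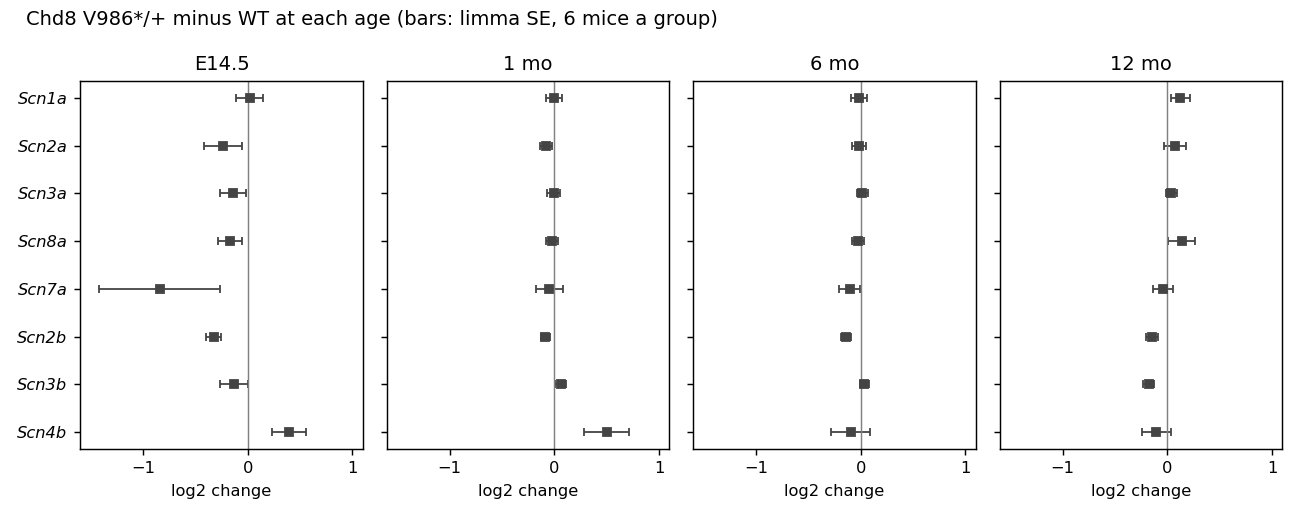
Log2 change between Chd8 V986*/+ and WT mice (x axis) for each sodium channel gene at 4 ages, with limma SE from 6 mice a group. Scn2b lay below 0 at each age, from -0.32 at E14.5 to -0.08 at 1 month, and Scn7a at E14.5 has the widest error (-0.84 ± 0.58).

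Scn2b had the smallest p of the members at E14.5. Its 6 values in Chd8 V986*/+ cortex, 7.81, 7.82, 7.84, 7.90, 7.95 and 8.001, all lay below the 6 in WT, 8.02, 8.17, 8.21, 8.22, 8.27 and 8.38. Of all genes tested at E14.5, 0.0889% had all Chd8 V986*/+ samples below all WT samples. The log2 change was -0.32 ± 0.07 (unadjusted p = 0.00035, adjusted p = 0.68 by limma), and the exact two-sided permutation p was 0.0022, the smallest that 6 against 6 mice can give. In a fit of all 48 samples, which judges the E14.5 difference by the spread at all ages, the adjusted p was 0.0012, and 0.537% of all genes were called at E14.5. With replicate number added to that fit, Scn2b was called at E14.5, where 1.58% of all genes were called, and at 12 months, where 5.81% were. The call on Scn2b therefore turned on which samples set the spread.

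The midbrain, hindbrain and spinal cord markers differed in the same direction at E14.5. Of the 30 genes, 28 had a lower mean in Chd8 V986*/+ samples. The summed level of the 30 (log2) was 10.94 to 13.03 in WT and 11.03 to 11.93 in Chd8 V986*/+ samples. Isl1, which had the highest mean of the 30 in both genotypes, went the other way (9.85 in WT and 10.02). Means within 0.5 of the floor were those of 4 genes in WT and 15 in Chd8 V986*/+ samples, most of them Hox genes. Some WT means were raised by high values. Hoxa5 had a mean of 2.76, a median of 2.27 and a highest value of 5.73. For Hoxd3 these were 3.26, 2.20 and 7.52. The counts were not repeated without WT replicate 5. When the mean of these markers was added to the fit, the Scn2b change was -0.26 (limma adjusted p = 1.00). The Scn7a change went from -0.84 to 0.23 in that fit, and to -0.27 without WT replicate 5 (adjusted p = 1.00). The 6 cortical markers all had a higher mean in Chd8 V986*/+ samples (10.75 to 11.84 in WT and 11.54 to 12.05 in Chd8 V986*/+ samples for the mean of the 6), and 6 of 6 general neuronal markers had a lower one (12.84 to 13.26 and 12.90 to 13.22). The part of these markers in the genotype differences beyond this fit was not tested.

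At the later ages Scn2b stayed lower in the Chd8 V986*/+ means. At 6 months it ranged from 13.004 to 13.34 (median 13.16) in WT and from 12.95 to 13.13 (median 13.02) in Chd8 V986*/+ mice, a log2 change of -0.14 ± 0.05 (exact p = 0.022, limma adjusted p = 0.51). At 12 months the values were 13.04 to 13.37 (median 13.20) and 12.93 to 13.10 (median 13.08), a change of -0.15 ± 0.06 (exact p = 0.024, limma adjusted p = 0.36). At 1 month the change was -0.08 ± 0.04 (exact p = 0.095, limma adjusted p = 0.61). The groups overlapped at all 3 postnatal ages, and the Chd8 V986*/+ levels were 0.904 to 0.943 of those in WT. The change at E14.5 was not shown to differ from the later ones: the differences between them were 0.24 ± 0.08, 0.18 ± 0.08 and 0.18 ± 0.08 at 1, 6 and 12 months, with adjusted p of 0.99, 0.94 and 0.35 (limma interaction). None of the 8 members passed this test, where 0, 0 and 0.0635% of all genes did. Without WT E14.5 replicate 6 the first of these had an adjusted p of 0.084.

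Scn3b at 12 months ranged from 11.77 to 12.06 (median 11.97) in WT and from 11.70 to 11.88 (median 11.76) in Chd8 V986*/+ cortex. WT replicate 3 was the only WT mouse within the Chd8 V986*/+ range. The log2 change was -0.18 ± 0.05 (exact p = 0.011, limma adjusted p = 0.27), and without WT replicate 3 it was -0.21 (adjusted p = 0.089). At E14.5, 1 and 6 months the changes were -0.13, 0.06 and 0.04, each with overlap (limma adjusted p of 0.79 or higher).

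Scn4b was higher in the Chd8 V986*/+ means at E14.5 (0.39 ± 0.16, exact p = 0.035, limma adjusted p = 0.98) and at 1 month (0.50 ± 0.22, exact p = 0.10, limma adjusted p = 0.52), and lower at 6 and 12 months (-0.10 ± 0.19 and -0.10 ± 0.14). Its SD among mice was 0.59 in WT at 1 month. The WT values at that age were 10.84, 11.13, 11.20, 11.83, 12.11 and 12.30, and the Chd8 V986*/+ values were 11.67, 11.78, 11.88, 12.27, 12.35 and 12.46.

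The level of Scn4b moved with that of striatal genes across mice. Over the 12 mice of an age, its correlation with the mean of 6 striatal markers, Drd1, Drd2 and Ppp1r1b among them, was r = 0.969 at 1 month, 0.940 at 6 months and 0.836 at 12 months (rho = 0.944, 0.951 and 0.734, n = 12 each). Permutation p-values were 1e-05, 1e-05 and 0.00038 for r, the first 2 being the smallest that 100000 permutations can give, and 5.5e-05, 5.5e-05 and 0.0010 after adjustment over 11 relations. For rho the permutation p-values were 5e-05, 5e-05 and 0.0088, adjusted to 0.00028, 0.00028 and 0.016. Without the 2 mice farthest from the median marker level, r was 0.940, 0.875 and 0.654. Within WT mice r was 0.979, 0.984 and 0.673, and within Chd8 V986*/+ mice 0.947, 0.884 and 0.932 (n = 6 each). At 1 month all 6 striatal genes had a higher mean in Chd8 V986*/+ mice, and their summed level (log2) was 12.61 to 14.22 in WT and 13.41 to 14.13 in Chd8 V986*/+ mice. At 6 months 5 of the 6 and at 12 months all 6 had a lower mean in Chd8 V986*/+ mice, at summed levels of 12.93 to 14.26 and 13.79 to 14.22 in WT and 13.16 to 14.02 and 13.08 to 14.12 in Chd8 V986*/+ mice. None of the 6 was at the floor in any group. How much striatum each sample held was not tested.

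At E14.5, Scn7a followed the midbrain, hindbrain and spinal cord markers across the 12 samples (r = 0.946, permutation p = 0.00015, rho = 0.881, permutation p = 0.00037, adjusted p = 0.00055 for r and 0.0014 for rho). Without WT replicates 3 and 5, the farthest from the median, r was 0.761, and within WT and Chd8 V986*/+ samples it was 0.973 and 0.702. Scn3a (r = 0.793, rho = 0.832), Scn2a (r = 0.703, rho = 0.748) and Scn3b (r = 0.696, rho = 0.713) had adjusted permutation p for r of 0.0015, 0.0093 and 0.013, and adjusted p for rho of 0.0037, 0.016 and 0.018. Without WT replicates 3 and 5 their r was 0.799, 0.730 and 0.662. Within WT it was 0.862, 0.786 and 0.790, and within Chd8 V986*/+ samples, whose markers ranged less, 0.450, 0.329 and 0.0191. For Scn2b, r was 0.700 (adjusted permutation p = 0.0093) and rho 0.455 (adjusted permutation p = 0.19), and without WT replicates 3 and 5 r was 0.478, so that this relation rested on them. Within WT and Chd8 V986*/+ samples it was 0.844 and 0.0376. Scn8a (r = 0.449, rho = 0.385), Scn1a (r = 0.141, rho = 0.217) and Scn4b (r = -0.556, rho = -0.322) did not pass, with adjusted permutation p for r of 0.15, 0.65 and 0.062.

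**Figure D5:**
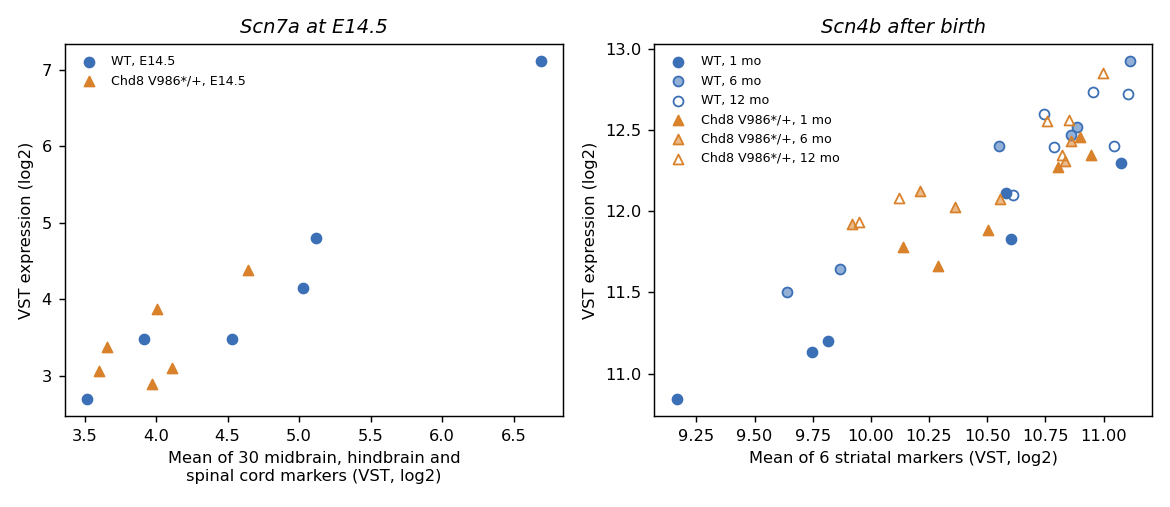
Left, VST expression of Scn7a (y axis) against the mean of 30 midbrain, hindbrain and spinal cord markers (x axis) in the 12 samples of E14.5, and right, Scn4b against the mean of 6 striatal markers in the 36 postnatal mice, all in log2 units. Each point is 1 mouse. The WT E14.5 replicate with a marker mean of 6.69 has the highest Scn7a, 7.12, and Scn4b at 1 month runs from 10.84 to 12.46 along the marker axis.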

How the data were processed

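Cortical polyA RNA of 48 mice was sequenced. The authors filtered reads by quality with FASTX, trimmed adapters with cutadapt, aligned to mm9 with STAR 2.5.2b, quantified transcripts with Salmon 0.11.3 and used DESeq2 1.22.2 with a model that corrected for batch. The batch is not named. The kit is given as stranded in the paper and as TruSeq RNA Library Prep Kit v2 in the labels. The deposited values are VST expression on a log2 scale. Their most frequent value, 2.14, was taken as the floor. Means of replicates 1 to 3 and 4 to 6 were equal to within 3.20e-14, so that a difference between them had been removed, which can narrow the spread that tests see. Read depth per gene is unknown, so no counting error is given, and the precision is that between 6 mice. The highest correlation between samples was 0.996 and 0 pairs were identical.

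Values were tested with limma 3.58.1 (R 4.3.3, intensity trend) since a count model needs counts: genotypes at each age in 12 samples, ages within a genotype in 24 samples, and the interaction in 48. Genes with a mean at least 0.5 above the floor were tested, with Benjamini-Hochberg adjustment over all of them and a threshold of 0.1. Single differences were tested with exact two-sided permutation tests, and correlations, chosen after seeing the values, with 100000 permutations (Python 3.11.15, scipy 1.17.1). The fits were tested on simulated data with independent noise and planted changes larger than the genotype differences given for the members. That test does not cover changes of their size. The members and gene lists were chosen with earlier results of these data known. Of the lists, genes called by genotype or, for age, the 2 that rose and the 2 that fell most in both genotypes are named, with other sodium channel genes and the 3 genes nearest to each member. Some genes and sequences that this rule covers are not reported here. Alternatives were a replicate block, 1 fit of 48 samples, only the 2 ages compared, no filter or a filter at 1.5, no trend, robust variance, quantile or median scaling, read depth or marker covariates, a threshold of 0.05, each sample left out, and, added after seeing the data, the set of replicates as a covariate and each E14.5 sample left out of the interaction. Promoters are RefSeq sequence of GRCm38.p6, other coordinates are mm9. The symbols did not separate the 2 annotated Scn8a genes.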

Additional observations from a re-analysis of the deposited data

Results flagged for a closer look

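In groups of 6 mice, 6 of 104 combinations of gene and group had a sample far from the rest of its group, where chance flags about 1 in 20. The screen covered the 8 members, Chd8 and 4 further sodium channel genes, and none of the 6 concerned a member. Scn10a was 6.72 in WT E14.5 replicate 5, the sample with the highest hindbrain and spinal cord markers, against 4.48 or less in the other 5. Scn9a was 6.70 in WT 1-month replicate 5, against 6.01 or less, and 6.92 in WT 6-month replicate 1, against 5.94 or less. Chd8 was 11.60 in Chd8 V986*/+ E14.5 replicate 1, against 11.90 or more in the other 5. It was 11.36 in WT 12-month replicate 6, against 11.63 or more, and 11.17 in Chd8 V986*/+ 12-month replicate 6, against 11.11 or less. WT 12-month replicate 6 was also the lowest of its group in Scn2a (13.14), Scn8a (12.78), Scn3a (10.46) and Scn2b (13.04).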

How the results depend on the processing

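In 1 fit of 48 samples, 1 member was called between genotypes at E14.5 (Scn2b) where the fit by age called 0, and all genes called rose from 1 to 93 at E14.5 and from 8 to 520 at 12 months. No label gives a shared litter or batch to a replicate number, and the pairs did not all correlate at over 0.1, so the samples were taken as unpaired. At E14.5 same-numbered samples correlated at 0.015 to 0.563 (mean 0.226), 4 of 6 pairs were over 0.1 and 2 of 6 matched their own number best. The mean correlation was 0.019, 0.046 and -0.034 at 1, 6 and 12 months. With a replicate block within each age, 0 members were called at any age. With the replicate block in the fit of 48 samples, 1 member was called at E14.5 and 1 at 12 months (both Scn2b), where 1.58% and 5.81% of all genes were called, and the block moved no balance across the threshold. For age steps, the single calls between 1 and 6 months went to 0 with a threshold of 0.05 or no filter, in Chd8 V986*/+ mice also with no trend or 1 fit of 48 samples, and to 2 in WT (Scn4b and Scn1a) with only the 2 ages compared. The call on Scn3b between 6 and 12 months went to 0 with a threshold of 0.05, no trend, quantile normalization or 1 fit of 48 samples. Leaving out 1 sample gave 0 to 1 member called by genotype at 12 months, 0 to 2 in WT and 0 to 1 in Chd8 V986*/+ mice from 1 to 6 months, 0 to 1 from 6 to 12 months in Chd8 V986*/+ mice and 0 to 1 for the interaction at 1 month. The Scn2b minus Scn3b difference at 6 months was -0.21 to -0.12. All genes called by genotype, 1, 24, 16 and 8 in order of age, were 0 to 2, 3 to 32, 5 to 21 and 2 to 251 (without WT 12-month replicate 3) when 1 sample was left out, and 0 to 274, 13 to 45, 2 to 38 and 2 to 1006 under the other alternatives. For the interaction at 12 months the count was 11, and 3 to 695 (without WT E14.5 replicate 6) or 0 to 254. Between 1 and 6 months 2562 genes were called in WT and 1683 to 4242 under other alternatives. Between 6 and 12 months 325 were called in Chd8 V986*/+ mice, and 97 to 723 (without E14.5 replicate 1) with 1 sample left out. The 7 members called from E14.5 to 1 month kept their call and sign under every alternative run. The causes were not tested. The number of mice limits what can be seen, and low levels, as for Scn7a and Scn4b at E14.5, are compressed.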
